A study of Mus musculus with 2 samples.

Results

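HOX genes encode homeodomain transcription factors and lie in 4 clusters, HOXA to HOXD, in which the members are numbered from 1 to 13 by their place, so that genes of the same number in different clusters (paralogues) are the closest relatives. Genes of low number act at anterior levels of the embryo and respond early to retinoic acid, genes of high number act at posterior levels and in limbs and genitals, and the order along the cluster matches the order along the body axis. In adult cells the set of active HOX genes is kept by the opposing action of Polycomb and MLL complexes. Lung mesenchyme uses genes of low and middle number of HOXA and HOXB, among them Hoxa5 and Hoxb5, which take part in the branching of the airways.

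The members were chosen as probe sets that name a single gene of the 4 clusters, and 51 probe sets for 34 of the 20679 genes with a value are described. Hoxa6, Hoxb8, Hoxc11 and Hoxc12 have no probe set of their own here. The comparison was between 2 cultured lines that the study sorted from the KALLU line, itself grown from a lung squamous cell carcinoma (SCC) of KA/KA mice on the FVB background. These mice carry a kinase-dead form of Ikkα, a kinase of the NF-κB pathway, knocked into both alleles, so both lines carry it; the age of the animal that gave the line is not stated. KALLU+ is the Sca1-high, CD24-negative line and KALLU- the Sca1-low, CD24-positive line. The study's array methods name cultured cells, with no medium or treatment. DMEM with serum is given for its proliferation assay, and whether either line is a clone is not stated. There is 1 sample per line, S1 read as KALLU+ and S2 as KALLU-, and the deposited table holds 1 signed linear fold change of S1 over S2 per probe set. It holds no level, no error and no p-value, so nothing below could be tested or checked between replicates. A value near 0 on the log2 scale does not tell equal expression from none in either line, and fewer expressing cells cannot be told apart from less RNA per cell. Ly6a, which encodes Sca1, was at -5.95-fold in the authors' table, against the reading of S1 as KALLU+. The 3 probe sets of Cd24a, from -62.5 to -39.7-fold, went with that reading. The names of the lines rest on that reading, and every sign below turns if the titles were exchanged. Squamous and basal epithelial markers differed little between the lines (7 genes, log2 medians from -0.09 to 0.36), and with no levels the SCC label could not be checked against them.

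By the median over its probe sets, 9 of the 34 HOX genes (26.5%) were at least 2-fold lower in the line read as KALLU+. At least 2-fold higher were 0. Of all genes, 5.08% were at least 2-fold lower and 4.69% at least 2-fold higher, or 9.77% either way. At 4-fold, 6 HOX genes were lower, against 1.6% of all genes, and by probe sets 13 of the 51 were at least 2-fold lower, against 4.72% of all probe sets. The lower genes were Hoxa2, Hoxa4 and Hoxa5 of HOXA and Hoxb2, Hoxb3, Hoxb4, Hoxb5, Hoxb6 and Hoxb9 of HOXB. They made up 9 of the 18 genes described in those clusters, and none of the 16 genes of HOXC and HOXD was among them. The median log2 fold change was -0.25 over the 9 HOXA genes, -2.02 over the 9 HOXB genes, -0.05 over the 7 HOXC genes and 0.00 over the 9 HOXD genes, against -0.04 over all genes. The difference between clusters has no test, since it rests on 1 sample of each line.

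**Figure D1:**
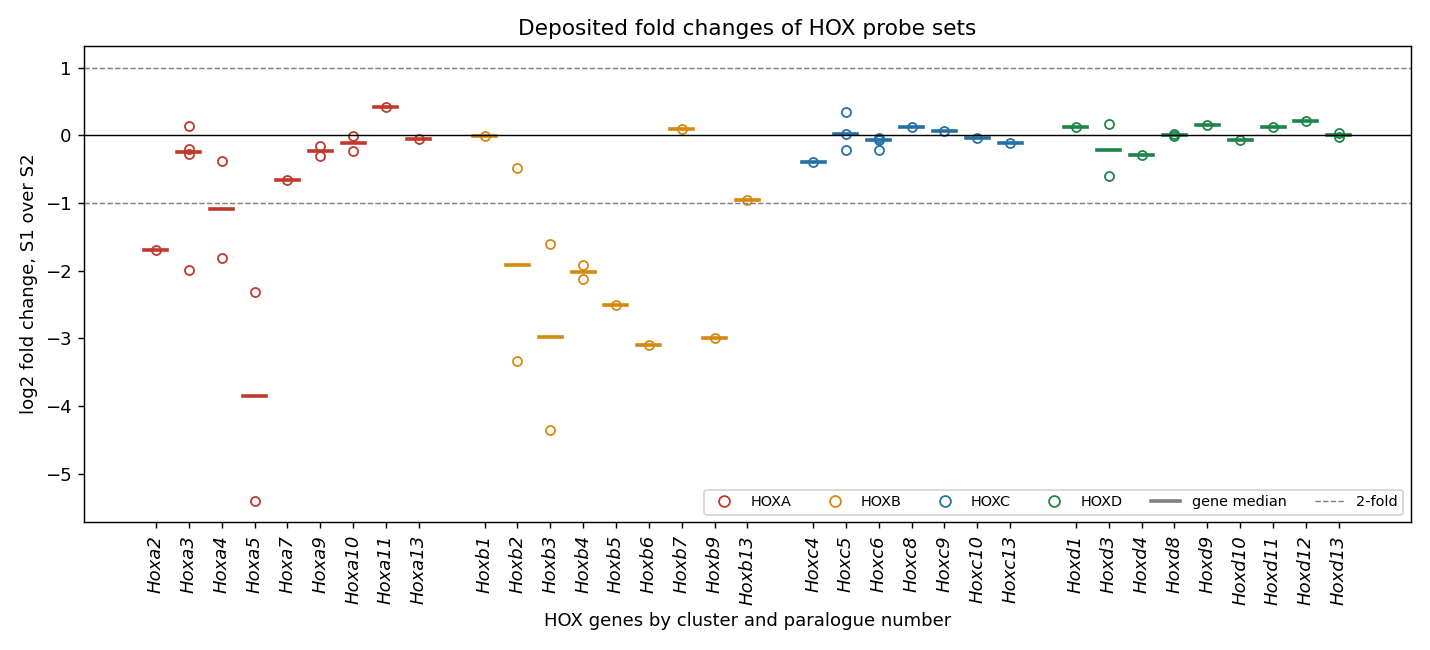
Log2 fold change of S1 (KALLU+) over S2 (KALLU-) for each of the 51 HOX probe sets (circles), with the median of each gene (bar), by cluster and paralogue number; dashed lines mark 2-fold. All 13 probe sets at least 2-fold lower belong to HOXA and HOXB, and the 23 probe sets of HOXC and HOXD lie between -0.60 and 0.35.

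Promoters of the genes that were lower can be compared in sequence for Hoxa2, Hoxa5 and Hoxb4, whose windows from 250 bases before to 50 bases after the start were taken from RefSeq (22 HOX genes matched). Hoxd4, the HOXD paralogue of Hoxb4, with a log2 fold change of -0.29, is shown beside them. Coordinates and strand are of GRCm38.p6, each sequence runs 5′ to 3′ along its gene, and capitals mark AGGTCA, the half-site of retinoic acid receptors, and TGATTNAT, a site for a HOX protein with its cofactor PBX, each read on either strand.
Hoxa2, chr6:52164782-52165081, minus strand: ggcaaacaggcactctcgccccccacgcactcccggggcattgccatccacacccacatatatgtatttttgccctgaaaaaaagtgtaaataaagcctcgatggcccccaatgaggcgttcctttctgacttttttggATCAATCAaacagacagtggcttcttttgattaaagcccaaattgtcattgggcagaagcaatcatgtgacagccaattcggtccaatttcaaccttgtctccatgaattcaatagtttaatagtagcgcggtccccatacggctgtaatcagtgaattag
Hoxa5, chr6:52204538-52204837, minus strand: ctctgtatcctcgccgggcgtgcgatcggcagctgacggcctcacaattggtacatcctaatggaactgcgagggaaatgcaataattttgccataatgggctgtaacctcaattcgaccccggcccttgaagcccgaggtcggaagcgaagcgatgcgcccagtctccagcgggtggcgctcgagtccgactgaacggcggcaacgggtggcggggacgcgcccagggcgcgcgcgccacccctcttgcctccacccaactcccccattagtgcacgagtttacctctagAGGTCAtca
Hoxb4, chr11:96318017-96318316, plus strand: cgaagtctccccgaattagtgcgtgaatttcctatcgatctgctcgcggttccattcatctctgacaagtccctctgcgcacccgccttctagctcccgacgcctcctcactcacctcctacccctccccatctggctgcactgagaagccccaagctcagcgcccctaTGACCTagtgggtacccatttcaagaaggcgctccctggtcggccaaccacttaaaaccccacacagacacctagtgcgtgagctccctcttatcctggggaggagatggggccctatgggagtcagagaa
Hoxd4, chr2:74721728-74722027, plus strand: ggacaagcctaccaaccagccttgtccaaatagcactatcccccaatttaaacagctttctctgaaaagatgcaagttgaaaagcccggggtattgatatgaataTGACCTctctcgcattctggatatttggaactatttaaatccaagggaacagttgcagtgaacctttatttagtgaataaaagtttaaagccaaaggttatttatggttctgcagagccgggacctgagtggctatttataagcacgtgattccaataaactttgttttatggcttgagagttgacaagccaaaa
AGGTCA occurs once in the windows of Hoxa5, Hoxb4 and Hoxd4, and TGATTNAT once in that of Hoxa2. Of all 32851 promoter windows of this length, 16.3% hold AGGTCA and 3.22% hold TGATTNAT, and of the 24 HOX windows 7 hold AGGTCA and 2 hold TGATTNAT. Hoxb4, lower, and Hoxd4, nearly level, thus share the half-site. Hoxc4, Hoxd3, Hoxd8 and Hoxd10, none at least 2-fold lower, hold it too. Of the 9 lower genes, 3 had a window, so the rest could not be compared. The windows differ in CpG content, with 29 CpG in Hoxa5, 14 in Hoxb4, 9 in Hoxa2 and 4 in Hoxd4, where the median is 14.5 over the HOX windows and 7 over all windows. A match is a stretch of letters, and no binding was measured.

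In HOXA the largest difference was that of Hoxa5, a factor of lung and airway morphogenesis that can activate the p53 gene. Its pair of probe sets gave -42.3-fold and -4.97-fold in the authors' table, a median log2 fold change of -3.86, the 73rd lowest of 20679 genes. The value of -42.3 was the lowest of any HOX probe set, and the smaller one comes from a probe set of the type open to cross-hybridisation (suffix _x_at). Hoxa2, a selector gene of the second branchial arch, was at -3.24-fold at its 1 probe set. Hoxa4 was split, at -3.51-fold and, for a probe set with the suffix _x_at, -1.30-fold, and its log2 median of -1.10 lay just past 2-fold. Hoxa3, needed for the thymus and parathyroid, was split further. A probe set shared between similar transcripts (suffix _s_at) gave -4.0-fold, while the others gave -1.22, -1.16 and 1.10-fold, for a log2 median of -0.25. Whether Hoxa3 counts as lower therefore depends on the probe set read.

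From Hoxa7 on, no HOXA gene reached 2-fold. Hoxa7, which like Hoxa9 is active in leukaemias with MLL fusions, was nearest at -1.58-fold. Hoxa9, a partner of Meis1 in leukaemia, had a log2 median of -0.23, Hoxa10 and Hoxa11, which pattern the uterus, had -0.12 and 0.42, and Hoxa13, of the distal limb and genital tubercle, had -0.05. So in HOXA 3 of the 4 genes from Hoxa2 to Hoxa5 and 0 of the 5 numbered 7 to 13 were at least 2-fold lower.

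In HOXB the lower genes formed an unbroken run from Hoxb2 to Hoxb6, 5 of 5 genes, with log2 medians from -3.10 to -1.91. Hoxb3 gave -20.6-fold and -3.05-fold at its probe sets, so that both were past 2-fold. Hoxb4, which expands blood stem cells when overexpressed, was the most even, with -4.34-fold and -3.80-fold. Hoxb5, active in lung mesenchyme and the enteric nervous system, was at -5.66-fold and Hoxb6, of the lateral plate mesoderm, at -8.57-fold, each at 1 probe set. Hoxb2, which acts with Hoxb1 in the hindbrain, was split into -10.1-fold and -1.41-fold, and its log2 median was -1.91. Each of these 5 genes was thus lower, Hoxb2 with 1 probe set under 2-fold.

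Outside that run, Hoxb9 was at -8.00-fold at its 1 probe set, a log2 value of -3.0 close to that of Hoxb6. Hoxb1, at the low-numbered end, was level at a log2 value of -0.02. Hoxb13, a marker of prostate and tail end that lies apart from the rest of the cluster, was at -1.95-fold, just under the threshold. Hoxb7 was the exception between Hoxb6 and Hoxb9. Its own probe set gave 1.07-fold, whereas the probe set annotated to Hoxb7 together with Hoxb8, left out by the rule for members, gave -7.78-fold. With that shared probe set counted for each of its genes, Hoxb8 entered at a log2 value of -2.96 and Hoxb7 moved to -1.43, and 11 of 35 HOX genes were at least 2-fold lower. Which of Hoxb7 and Hoxb8 the shared probe set reads cannot be told from the table.

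The 16 genes of HOXC and HOXD lay between log2 values of -0.40 (Hoxc4) and 0.21 (Hoxd12), and 9 of them were above 0. As a scale for such values, the receptors of smell, olfactory and vomeronasal, which belong to sensory neurons, had 79 probe sets that lay between -0.55 and 0.38. This yardstick was chosen with values known. All 16 genes of HOXC and HOXD lay in that range, as did 6 of the 18 genes of HOXA and HOXB and 73.8% of all genes. Of their 23 probe sets, 22 lay in it, and 1 of the 2 of Hoxd3 was outside at -1.51-fold. Hoxc13, a hair follicle gene, had -0.11, Hoxc8 had 0.12, Hoxc10 had -0.05, and the limb genes Hoxd11 and Hoxd13 had 0.13 and 0.00 on the log2 scale. None of the 16 genes reached 2-fold, which restates the count above.

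**Figure D2:**
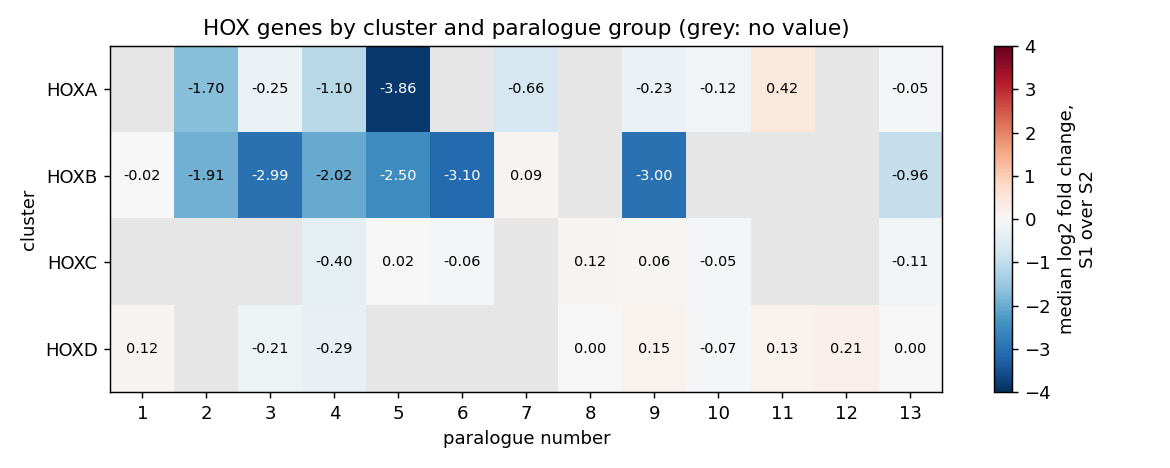
Median log2 fold change of S1 (KALLU+) over S2 (KALLU-) by cluster (rows) and paralogue number (columns), blue where lower in S1 and red where higher; a grey cell has no value. The dark cells fill most of the left part of HOXA and HOXB, and Hoxb9 at -3.0 stands to the right of them.

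Set side by side by number, paralogues differed most in group 5, where Hoxa5 had a log2 value of -3.86, Hoxb5 -2.50 and Hoxc5 0.02, a range of 3.88. In group 4 the values were -1.10 for Hoxa4, -2.02 for Hoxb4, -0.40 for Hoxc4 and -0.29 for Hoxd4. In group 3 Hoxb3 was at -2.99, while Hoxa3 and Hoxd3 were at -0.25 and -0.21. In group 9 Hoxb9 was at -3.0, while Hoxa9, Hoxc9 and Hoxd9 were at -0.23, 0.06 and 0.15. Group 2 exists in HOXA and HOXB alone on this array, and its genes were close, at -1.70 for Hoxa2 and -1.91 for Hoxb2. Group 6 had Hoxb6 at -3.10 and Hoxc6 at -0.06. In groups 3, 4, 5, 6 and 9 the lowest gene was of HOXA or HOXB, while group 2 could show no other cluster. Each of these groups holds a gene already counted as lower, so this restates that count. By place, 3 of 7 anterior genes (numbers 1 to 3), 5 of 13 central genes (4 to 8) and 1 of 14 posterior genes (9 to 13) were at least 2-fold lower. Place is mixed with cluster, since 8 of the posterior but 2 of the anterior genes are of HOXC or HOXD. Within HOXA and HOXB the counts were 3 of 5, 5 of 7 and 1 of 6, against 5.08% of all genes.

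Genes beside the clusters were read to see where the lower values end. Among the 40 nearest measured neighbours, 5 on each side of each cluster, 1 was at least 2-fold lower (2.50%) and 0 higher. Of all genes, 5.08% were lower and 4.69% higher. The lower neighbour was Skap2, an adaptor protein gene at the low-numbered end of HOXA, with a log2 median of -1.42 over 3 probe sets. The neighbour count was 3 lower (Skap2, Snx10 and Cbx1) without _s_at and _x_at probe sets, 5 lower and 3 higher where the most changed probe set stood for a gene, and 0 lower and 3 higher when centred on the array's bacterial poly-A controls. Next to Skap2, Snx10 had -0.80, and the neighbours past Hoxa13, Evx1os and Evx1, had 0.17 and -0.04. Around HOXB, Skap1 next to Hoxb1 had 0.14 and Ttll6 next to Hoxb13 had -0.21, and the 10 neighbours lay between -0.59 and 0.14. Inside the clusters, 4 noncoding genes had a probe set of their own. Hoxb5os, antisense to Hoxb5, was at -9.48-fold, and Gm15050, which lies between Hoxa3 and Hoxa4, had a log2 value of -1.14. Hoxa11os and Hoxd3os1 had log2 medians of 0.06 and -0.02. Hoxb5os and Gm15050 each rest on 1 probe set. Of the genes beside Gm15050, Hoxa4 was at least 2-fold lower by its median and Hoxa3 was not.

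**Figure D3:**
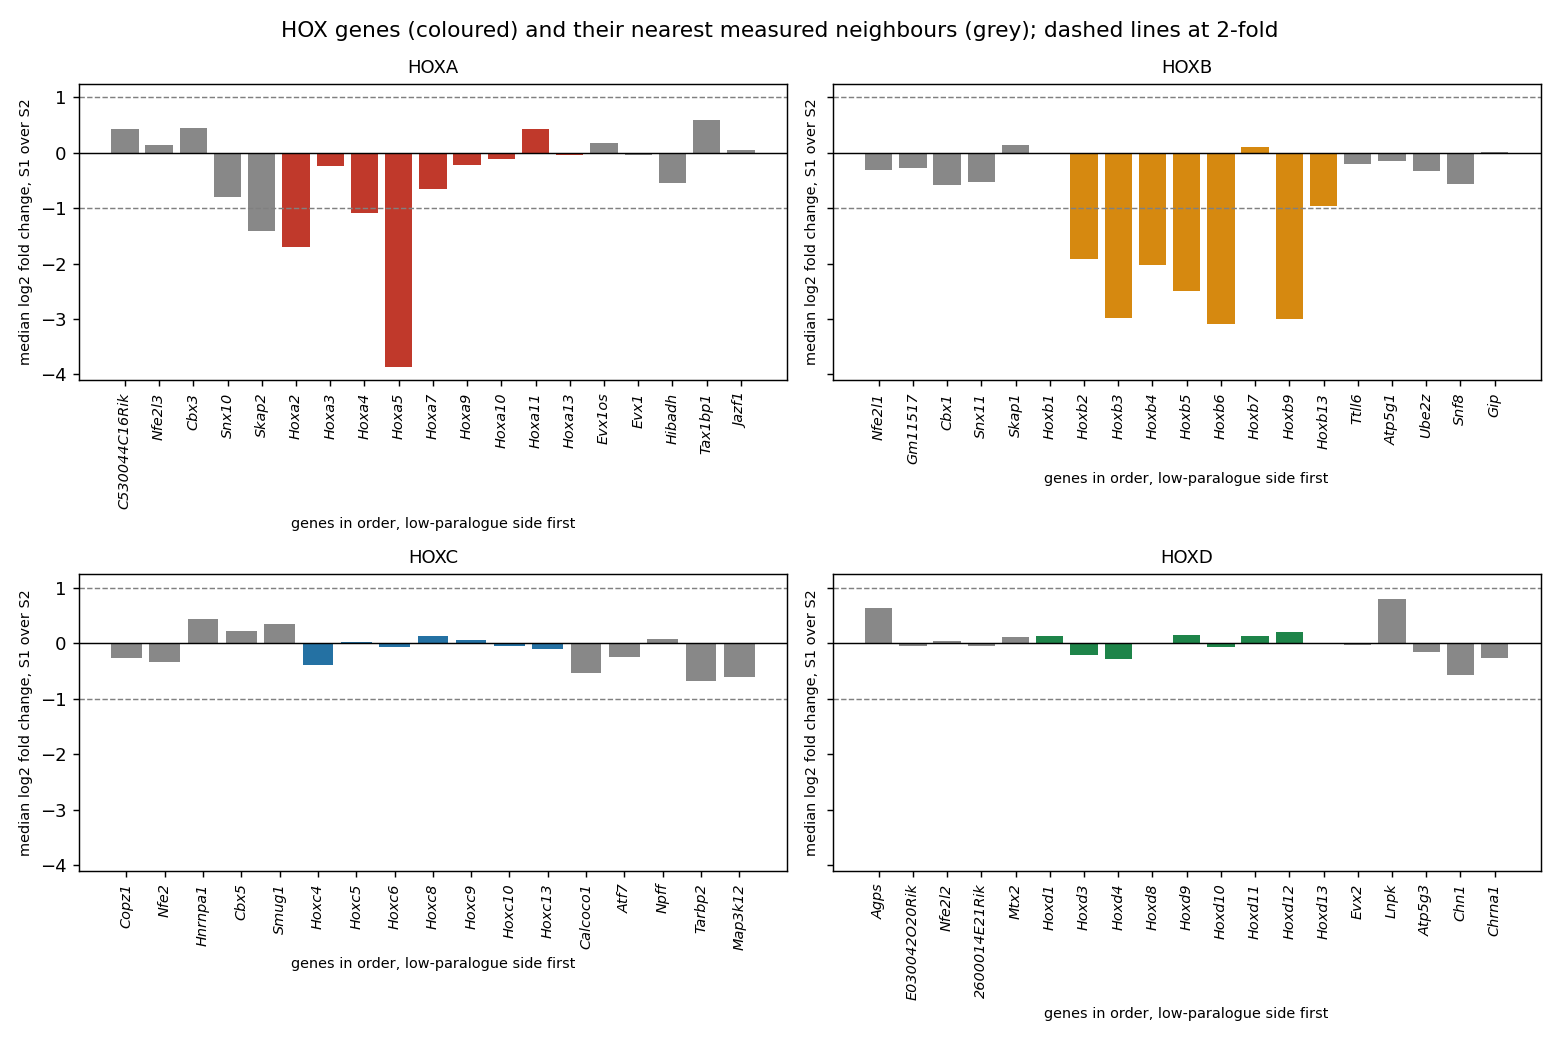
Median log2 fold change of S1 (KALLU+) over S2 (KALLU-) for the HOX genes of each cluster (coloured bars) and their 5 nearest measured neighbours on each side (grey bars), in gene order; dashed lines mark 2-fold. Apart from Skap2 at -1.42, no grey bar crosses 2-fold.

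HOX proteins bind DNA with TALE homeodomain cofactors of the PBX, MEIS and PKNOX families. Of the 7 described, 1 was at least 2-fold lower and 1 at least 2-fold higher (14.3% each), against 5.08% and 4.69% of all genes. These were close relatives, and in so short a list 1 gene makes up each share. Centred on the poly-A controls, 0 were lower and 1 higher. Meis1 had a log2 median of -1.40, spread from -9.88-fold to -1.11-fold over 3 probe sets, and Meis2 had 1.42, with all 4 probe sets between 2.48 and 2.89-fold. Pbx2 was just under 2-fold with a log2 median of -0.96, and Pbx3 and Pbx4 had -0.21 and -0.32. Of 5 further partners and antagonists of HOX proteins, Hipk2, a kinase, had -1.10 over 8 probe sets, and the others lay nearer to 0. Hipk2 was under 2-fold when centred on the poly-A controls.

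Among the inputs of HOX clusters, the retinoic acid and CDX list had the most lower genes, 4 of 14 (28.6%), and 1 higher (7.14%). Of all genes, 5.08% were lower and 4.69% higher. With centring on the poly-A controls, 3 of the list were lower, Rarg being under 2-fold. Rarb, a retinoic acid receptor that is itself switched on by retinoic acid, was at -7.81-fold, and Crabp1, a retinoic acid carrier, at -7.80-fold. Aldh1a2, which makes retinoic acid, was at -3.63-fold, and the receptor Rarg had a log2 median of -1.06. Cyp26b1, which breaks retinoic acid down, was at 4.42-fold. Cdx1, Cdx2 and Cdx4, which turn on central HOX genes in the embryo, had log2 values of -0.35, 0.24 and 0.04. Of 16 Polycomb repressors, 2 were at least 2-fold higher (12.5%) and 1 lower (6.25%), against 4.69% and 5.08% of all genes. These counts were 3 higher and 0 lower when centred on the poly-A controls, and 3 higher and 3 lower where the most changed probe set stood for a gene. Suz12, a core subunit of the complex that methylates H3K27, had a log2 median of 1.73 and Bmi1, of the complex that ubiquitinates H2A, had 1.44, while Phc1 had -1.08 and the methylase genes Ezh2 and Ezh1 had 0.32 and -0.24. Of 14 MLL and other activating regulators, 3 were higher (21.4%) and 0 lower, against 4.69% and 5.08% of all genes. Mllt3, an MLL fusion partner, had a log2 median of 3.40 with its probe sets between 7.69 and 11.6-fold, Psip1, which tethers MLL to chromatin, had 1.65, and the H3K27 demethylase Kdm6a had 1.64. Kmt2a, which encodes MLL, had 0.22. At 2-fold the lower HOX genes thus stood beside 4 lower genes and 1 higher gene of the retinoic acid list. The Polycomb list had 1 lower and 2 higher, and the activating list 0 lower and 3 higher. Whether any of these has a part in the HOX values was not tested.

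**Figure D4:**
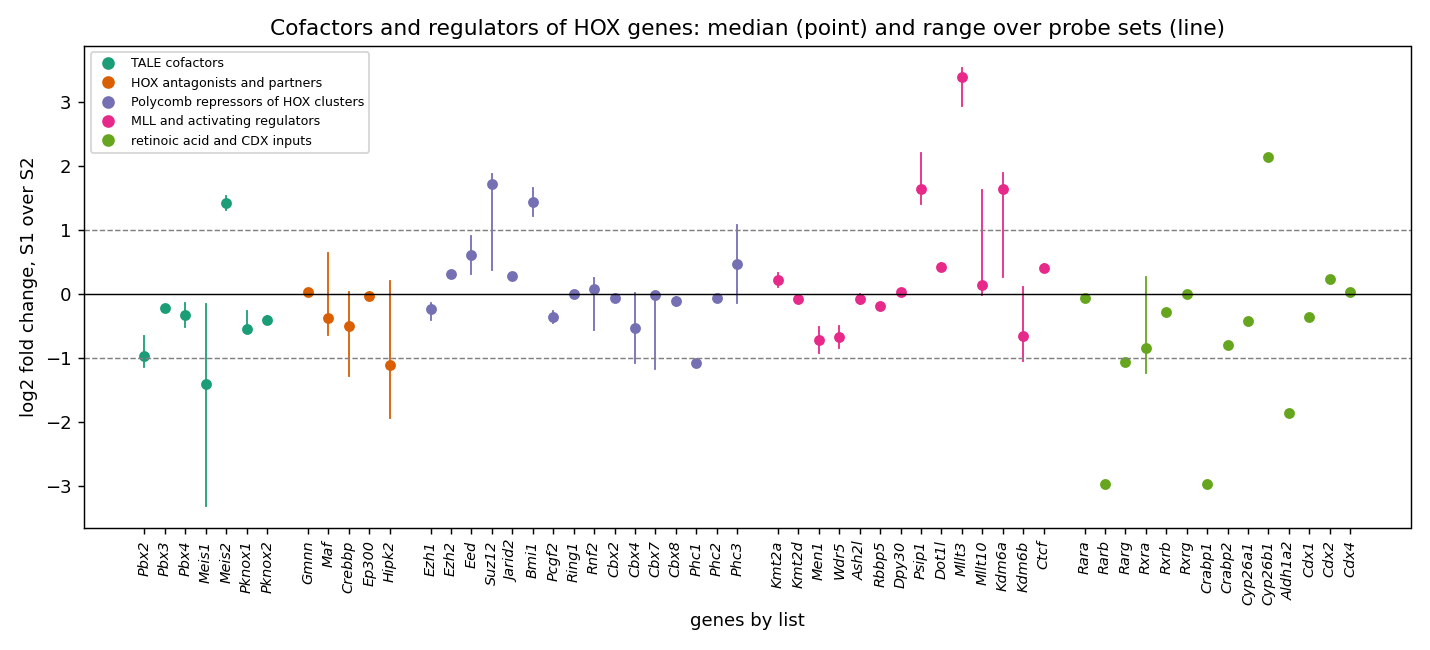
Log2 fold change of S1 (KALLU+) over S2 (KALLU-) for cofactors and regulators of HOX genes by list, with the median of each gene (point) and the range over its probe sets (line); dashed lines mark 2-fold. Rarb and Crabp1 lie lowest, near -2.97 and -2.96, and Mllt3 highest at 3.40.

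Fibroblasts keep HOX codes of their body site, so markers of other cell types were read beside the HOX genes. Of 8 fibroblast markers, 2 (25%) were at least 2-fold lower, against 5.08% of all genes. They were Col3a1 at a log2 median of -2.23 and Pdgfrb at -1.16. The list ran up to 0.42 (Dcn), with a median of -0.68. The 5 lung epithelial markers lay between -0.31 and 0.30, the 4 immune markers between -0.13 and 0.02 and the 3 endothelial markers between -0.37 and 0.31. The part of other cells in the HOX values was not tested. Centred on the bacterial poly-A controls, which raises every log2 value by 0.45, 8 HOX genes were at least 2-fold lower, Hoxa4 being under it, and of the markers Col3a1 alone remained past 2-fold.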

How the data were processed

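Total RNA of the 2 lines, 1 sample each, was hybridised to Affymetrix Mouse Genome 430 2.0 arrays, and Partek Genomics Suite was the authors' software. The submitters' processing notes name MAS5. Background correction, version and number of arrays per line are not given in the sources used here. The authors deposited 1 signed linear fold change of S1 over S2 per probe set (45101), with a minus sign where S1 was lower, and this ratio is the authors' value, with no signals or p-values; signal over background is unknown.

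Here the log2 of each deposited ratio was taken, keeping its direction, and probe sets naming a single gene were reduced to their median per gene (20679 genes). Members and lists were chosen with earlier results of these data known. A HOX gene and a cofactor gene are not reported here, nor are they in counts of members, lists or figures. Every other measured HOX gene is accounted for, with all probe sets given where the median or any probe set was at least 2-fold changed; of other lists the genes past 2-fold are named, for other homeobox genes the 5 largest each way. Further genes are named for comparison and were chosen after their values were seen. Counts rest on a 2-fold size threshold with no test. Older symbols and the order of neighbouring genes came from RefSeq (GRCm38.p6), of whose genes no coordinates are used beyond the promoter windows. The alternatives were other thresholds, probe set rules and centrings. The steps were tested on simulated data. Python 3.11.15, numpy 2.4.6, pandas 2.3.3 and matplotlib 3.10.9 were used.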

Additional observations from a re-analysis of the deposited data

How the results depend on the processing

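All alternatives were planned. No paired analysis was possible because the lines have 1 sample each and the deposited values are contrasts already. The count of 9 HOX genes at least 2-fold lower was 11 at 1.5-fold (Hoxa7 and Hoxb13 gained), 6 at 4-fold, 10 by the probe set with the largest change (Hoxa3 gained), 9 without _s_at and _x_at probe sets, 11 with the shared probe set, 9 centred on all probe sets and 8 centred on the poly-A controls, and 13 probe sets; 0 were higher in each of these. The HOX median of -0.11 lay between -0.22 and -0.10, except on the poly-A controls, where it was 0.33. That centring raises every gene alike, and the HOX median less the median of all genes stayed at -0.07. None of the 9 lower HOX genes changed sign, Hoxb7 went from 0.09 to -1.43 with the shared probe set, and taking the largest probe set moved 5 of 34 genes past the spread (pooled SD 0.49) seen among probe sets of the same gene.

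Over cofactors, regulators, neighbours and other homeobox genes together, most of them the 147 other homeobox genes, 17 were lower and 14 higher. Of those 147, 6.12% were lower and 4.76% higher, against 5.08% and 4.69% of all genes. No share was taken for the pool, so its counts show only how they move with the settings. The lower count was 30 at 1.5-fold, 5 at 4-fold, 29 by the probe set of largest change and 6 with poly-A centring; the higher count was 6 at 4-fold, 23 by the probe set of largest change and 22 with poly-A centring. On those controls Meis1, Hipk2, Phc1, Rarg and Skap2 were under 2-fold lower and Eed was past 2-fold higher. Thresholds, shifts and the choice of the most changed probe set move these counts by construction.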

Other observations

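Outside the HOX clusters, 147 homeobox genes were measured, leaving out the TALE and CDX genes described above. Their median log2 fold change was -0.04. Of them, 9 (6.12%) were at least 2-fold lower in the line read as KALLU+ and 7 (4.76%) at least 2-fold higher. These shares lie near those of all genes, 5.08% and 4.69%. Centred on the poly-A controls, which raises every gene alike, 3 of them were lower and 11 higher. No share of all genes was taken under that centring. The 5 lowest of these 147 were Lhx8, of jaw and forebrain development, at -39.3-fold, then Barx1, of the stomach and teeth, at -4.47-fold, Rhox5, a reproductive homeobox gene, at -4.46-fold, En1, of the midbrain and ventral limb, at -2.70-fold and Dlx2, of the branchial arches, at -2.53-fold, each at 1 probe set. The 5 highest of them were Meox2, a mesoderm gene, at a log2 median of 3.51, Pax3, of neural crest and muscle precursors, at 3.28, Irx2 at 2.88, Zfhx4 at 2.38 and Irx1 at 1.66. Irx5 had 1.38, and Irx1 and Irx2 each rest on 1 probe set.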
